A study of Mus musculus with 4 samples.

Results

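The NF-kB pathway and TNF receptor genes are 50 listed genes of NF-kB signalling, chosen by gene symbol and read from the count table through their Ensembl identifiers. Of the 50, 45 had a row among the 16591 genes of the table and 5 (Tnfrsf1a, Ltbr, Ltb, Lta and Ebi3) had none, so those 5 were not analysed here. Of the 45, 40 passed the filter on low counts and were tested, and 5 (Ikbke, Tnfaip3, Traf1, Tlr4 and Tnf) were below it. Gene expression had been measured by RNA sequencing in 2 libraries of a JQ1-resistant line (JQ1R) and 2 of a JQ1-sensitive line (JQ1S). Both are Eμ-Myc cell lines of C57BL/6 origin, lymphoma cells in which an immunoglobulin heavy-chain enhancer drives Myc, and the labels describe early-passage cultures in medium with no drug named for either line. JQ1 is a small molecule that blocks the acetyl-lysine pocket of the BET bromodomain proteins. Each condition is represented by 1 cell line, so resistance and any other difference between the lines cannot be told apart, and the labels do not say whether a line is 1 clone or how resistance was obtained.

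NF-kB is a family of dimeric transcription factors held in the cytoplasm by IkB proteins until a kinase complex marks the inhibitor for destruction. Receptors of the TNF family and Toll-like receptors feed that kinase through TRAF adaptors, death-domain adaptors and ubiquitin chains, and several genes that NF-kB switches on encode its own inhibitors. In B cells the classical arm relays signals from Toll-like receptors, CD40 and the antigen receptor, and the alternative arm relays survival signals from the BAFF receptor.

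Total counts were 10928239 and 11809635 in the resistant libraries and 13048103 and 10346007 in the sensitive libraries, where 1 count equals 0.0766 to 0.0967 CPM (counts scaled to a library total of 1000000). All 11 B-cell markers examined had a row, with a summed level of 4000 and 3890 CPM in the resistant libraries and 3650 and 3710 CPM in the sensitive libraries. At an edgeR adjusted p below 0.05, 3 of the 10 tested markers rose, beside 2.20% of all tested genes. The 3 were Ms4a1 (5.66-fold), Cd22 (1.21-fold) and Vpreb3 (1.17-fold), of which DESeq2 called 2 (Ms4a1 and Cd22). Their part in the results below was not tested. Few markers of other cells had a row, and those that did were low. Of 9 T-cell markers 1 had a row (Cd3d, 0 to 0.231 CPM in any library), and of 10 myeloid markers 4 had one, with a sum of 1.94 to 2.29 CPM in the resistant libraries and 1.17 to 1.46 CPM in the sensitive libraries. Of 6 NK-cell markers 2 had a row (at most 1.01 CPM in sum), as did 1 of 5 erythroid markers (at most 0.389 CPM) and 0 of 6 fibroblast and stroma markers. In bulk RNA, fewer cells of a type and less RNA per cell cannot be told apart.

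Of the 40 tested NF-kB pathway genes, 1 changed between the lines, and most of the others differed by little. Nfkbia, which encodes the inhibitor IkB-alpha, rose in resistant cells. The other 39, among them all 5 NF-kB subunits and all tested kinases, TRAF adaptors and Toll-like receptor genes, did not pass the test. A gene was called at an adjusted p below 0.05 in the quasi-likelihood test of edgeR over all 11945 tested genes, of which 3.73% were called, 2.20% as higher and 1.52% as lower in resistant cells. At an unadjusted p below 0.05 there were 3 members, all higher in resistant cells (Nfkbia, Tnfrsf13b and Gadd45b), beside 16.9% of all tested genes, 9.10% as higher. The log2 changes of the members were positive in 20 and negative in 20, with a median of -0.006 beside 0.003 over all tested genes, and the median size of a change was 0.094 beside 0.107.

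**Figure D1:**
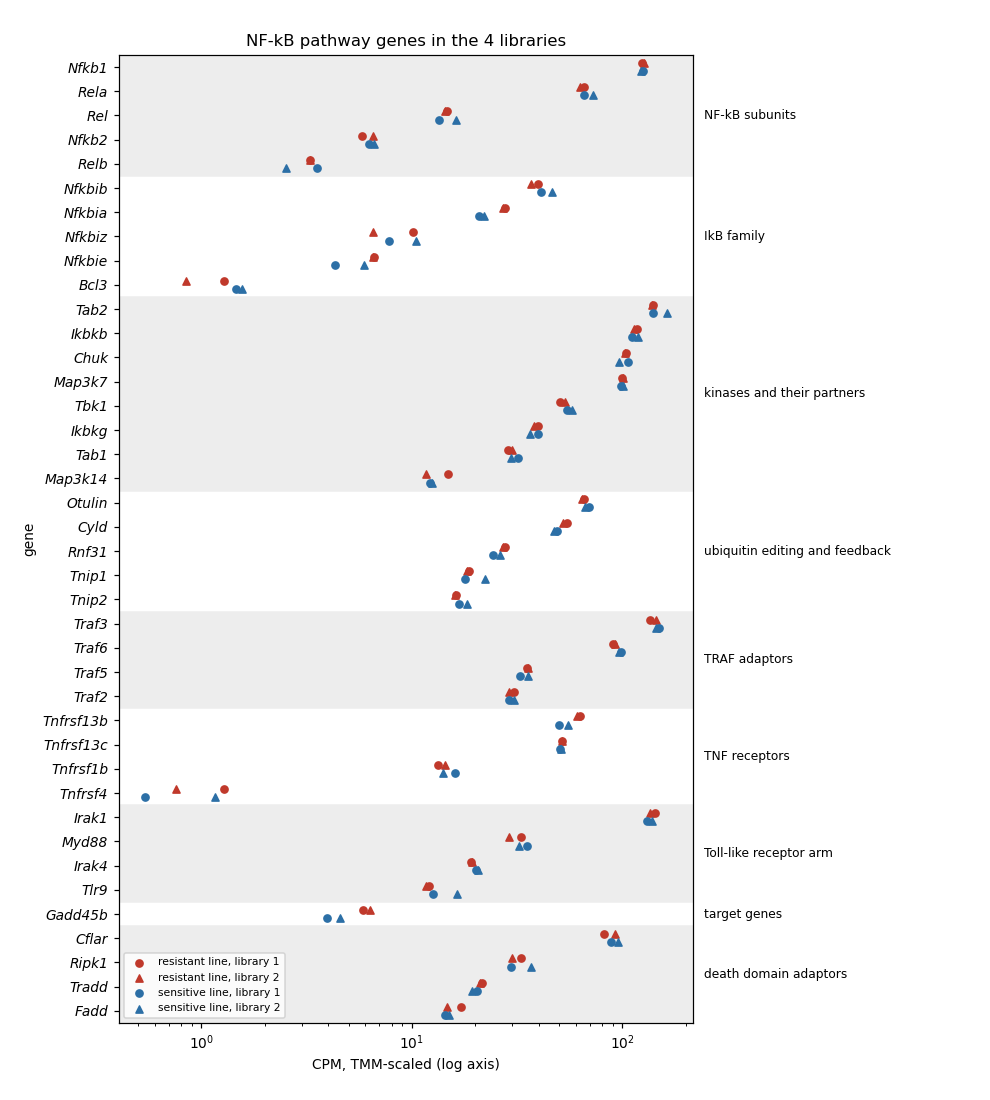
Level of each of the 40 tested members in each library, in TMM-scaled CPM on a log axis, grouped by role. Red marks are the resistant line and blue marks the sensitive line, with circles for library 1 and triangles for library 2. The members span about 1 CPM (Bcl3, Tnfrsf4) to over 130 CPM (Tab2, Traf3, Irak1), and for most of them the marks of both lines lie close together.

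Of the 3 listed ligands, 1 had a row and was scarcely detected. Tnf, the founding cytokine of the family, had 1 and 1 counts in the resistant libraries and 2 and 0 counts in the sensitive libraries, too few for a fold change. Lta and Ltb, the lymphotoxin subunits, had no row.

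Of the 4 listed receptors with a row, the most highly expressed were those of B-cell survival factors. Tnfrsf13c, which encodes the BAFF receptor, had 51.4 and 51.4 CPM in the resistant libraries, against 50.6 and 51.1 CPM in the sensitive libraries. The lines differed by less than 1 CPM without overlap, and the log2 change was 0.02 ± 0.07 (SE), with a 95% interval of -0.14 to 0.17 and an edgeR adjusted p of 0.943. Tnfrsf13b encodes TACI, the receptor for both BAFF and APRIL. It had 62.9 and 60.9 CPM in the resistant libraries, against 49.8 and 55.3 CPM in the sensitive libraries. Both resistant libraries were above both sensitive ones, with a log2 change of 0.24 ± 0.08, but its edgeR adjusted p was 0.0988 and it was not called. Dropping any 1 library kept the log2 change of Tnfrsf13b positive, from 0.16 (sensitive replicate 1 dropped) to 0.31 (sensitive replicate 2 dropped). With either resistant library dropped it was 0.22 or 0.26. DESeq2 gave an adjusted p of 0.612. Tnfrsf13b lies on chromosome 11 of GRCm38 at 61126755 to 61149372.

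Tnfrsf1b, the gene of TNF receptor 2, had 13.3 and 14.3 CPM in the resistant libraries, against 16.0 and 14.1 CPM in the sensitive libraries. These ranges overlapped (log2 change -0.13 ± 0.12, edgeR adjusted p = 0.639). Tnfrsf4, which encodes the costimulatory receptor OX40, was near the detection limit, at 1.28 and 0.758 CPM in the resistant libraries and 0.540 and 1.17 CPM in the sensitive libraries. Its log2 change of 0.30 had a 95% interval of -0.72 to 1.32, which does not exclude a 2-fold increase in resistant cells, and its libraries differed by 0.64 within the resistant line and by 0.91 within the sensitive line in log2 CPM. Tnfrsf1a and Ltbr, the receptors for TNF and lymphotoxin beta, had no row.

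The 4 tested TRAF adaptors, which couple TNF receptors to kinases and to ubiquitin ligases, differed by little between the lines. Traf3, the brake on the alternative arm, had 136 and 144 CPM in the resistant libraries, against 149 and 144 CPM in the sensitive libraries, a log2 change of -0.07 with a 95% interval of -0.20 to 0.06. Traf6, the adaptor shared by Toll-like and interleukin-1 receptors, had 90.4 and 92.3 CPM in the resistant libraries and 98.1 and 96.01 CPM in the sensitive libraries. Those libraries did not overlap, and the log2 change was -0.09 (edgeR adjusted p = 0.515). Traf2 and Traf5, which act at TNF family receptors, had log2 changes of 0.00 and 0.05. For all 4 the 95% interval lay within a 1.25-fold difference either way. Traf1, an adaptor that NF-kB itself induces in activated lymphocytes, had 6 and 3 counts in the resistant libraries and 5 and 4 counts in the sensitive libraries, and was not tested.

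In the Toll-like receptor arm, Tlr9, the endosomal sensor of unmethylated CpG DNA, had 11.99 and 11.6 CPM in the resistant libraries, against 12.6 and 16.4 CPM in the sensitive libraries. The resistant libraries were lower, but the sensitive ones differed from each other by more than the lines did (0.38 within the sensitive line and 0.28 between the lines, in log2 CPM). The log2 change was -0.28 ± 0.14 (edgeR adjusted p = 0.335), and it moved with the sensitive library left out, to -0.48 (adjusted p = 0.0159) for replicate 1 and to -0.092 (0.780) for replicate 2. The adaptor Myd88 (-0.13), the kinase Irak4 (-0.08) and the kinase Irak1 (0.04) had edgeR adjusted p-values of 0.533 or more, and 11.3% of the exonic bases of Myd88 overlap Acaa1a on the other strand. Tlr4, the receptor for lipopolysaccharide, had 8 and 3 counts in the resistant libraries and 4 and 3 counts in the sensitive libraries and was not tested.

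The death-domain adaptors that link TNF receptors to either NF-kB or cell death did not pass the test. Cflar, which encodes the caspase-8 inhibitor c-FLIP, had 81.8 and 92.1 CPM in the resistant libraries and 87.9 and 95.5 CPM in the sensitive libraries. Its ranges overlapped (log2 change -0.07, 95% interval -0.23 to 0.08). The kinase scaffold Ripk1 (-0.07), the receptor adaptor Tradd (0.09) and the caspase adaptor Fadd (0.12) had edgeR adjusted p-values of 0.687 or more.

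Among the 8 tested genes of kinases and their partners, edgeR called 0, with 0 at an unadjusted p below 0.05, and DESeq2 and limma-voom also called 0. The IkB kinase subunits are encoded by Chuk (IKK-alpha), Ikbkb (IKK-beta) and Ikbkg (the regulatory subunit NEMO). Ikbkb had 118 and 114 CPM in the resistant libraries, against 111 and 119 CPM in the sensitive libraries, and Chuk had 104 and 103 CPM in the resistant libraries, against 106 and 95.8 CPM in the sensitive libraries. The resistant values lay within the sensitive ones for both, and the log2 changes were 0.01 and 0.03, with 0.03 for Ikbkg. Map3k7, which encodes the upstream kinase TAK1, had 99.1 and 101 CPM in the resistant libraries and 98.8 and 101 CPM in the sensitive libraries, and its 95% interval ran from -0.13 to 0.13. The TAK1-binding partners Tab1 (-0.07) and Tab2 (-0.12), the IKK-related kinase Tbk1 (-0.11) and Map3k14, which encodes the NIK kinase of the alternative arm (0.09), did not pass. The log2 change of Tab2 was -0.23 when sensitive replicate 1 was left out (edgeR adjusted p = 0.00298), but -0.012 when sensitive replicate 2 was left out (0.937). Ikbke, an IKK-related kinase, had 1 and 2 counts in the resistant libraries and 1 and 0 counts in the sensitive libraries.

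The 5 NF-kB subunits differed widely in level from one another, and 0 were called between the lines by edgeR (0 at an unadjusted p below 0.05), DESeq2 or limma-voom. Nfkb1, which encodes p105 and its product p50, had 124 and 126 CPM in the resistant libraries, against 125 and 122 CPM in the sensitive libraries (log2 change 0.02 ± 0.06, 95% interval -0.11 to 0.15). Rela, the gene of the transactivating subunit p65, had 65.5 and 62.8 CPM in the resistant libraries, against 65.7 and 72.2 CPM in the sensitive libraries. The resistant libraries were lower by a margin smaller than the gap between the sensitive ones (log2 change -0.10 ± 0.07, 95% interval -0.25 to 0.05).

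Rel, which encodes the lymphoid subunit c-Rel, had 14.7 and 14.4 CPM in the resistant libraries, against 13.4 and 16.1 CPM in the sensitive libraries, and its log2 change was -0.01. Nfkb2, which encodes p100 and its product p52, had 5.77 and 6.57 CPM in the resistant libraries, against 6.24 and 6.61 CPM in the sensitive libraries (log2 change -0.05, with 18.1% of its exonic bases overlapping Psd and another gene on the other strand). Relb, the partner of p52 in the alternative arm, had 3.30 and 3.28 CPM in the resistant libraries, against 3.54 and 2.53 CPM in the sensitive libraries (log2 change 0.09, 95% interval -0.43 to 0.61). The ranges of all 3 overlapped, and the lowest edgeR adjusted p among the 5 subunits was 0.520, for Rela.

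Per kilobase of annotated exon, the classical subunits stood above the alternative ones in both lines. Rela had 20.9 ± 0.632 CPM per kb in resistant cells and 22.4 ± 1.51 CPM per kb in sensitive cells, and Nfkb1 10.4 ± 0.115 CPM per kb in resistant cells and 10.2 ± 0.178 CPM per kb in sensitive cells (mean ± SD, n = 2 each). Rel (1.95 CPM per kb in resistant cells and 1.98 in sensitive cells) was followed by Nfkb2 (1.34 in resistant cells and 1.40 in sensitive cells) and Relb (0.847 in resistant cells and 0.782 in sensitive cells). The order of Rela and Nfkb1 depends on the length used. With the longest annotated transcript of each gene in place of all annotated exons, Nfkb1 had 30.2 CPM per kb and Rela 23.6 CPM per kb in resistant cells, and Nfkb1 29.8 and Rela 25.4 CPM per kb in sensitive cells.

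**Figure D2:**
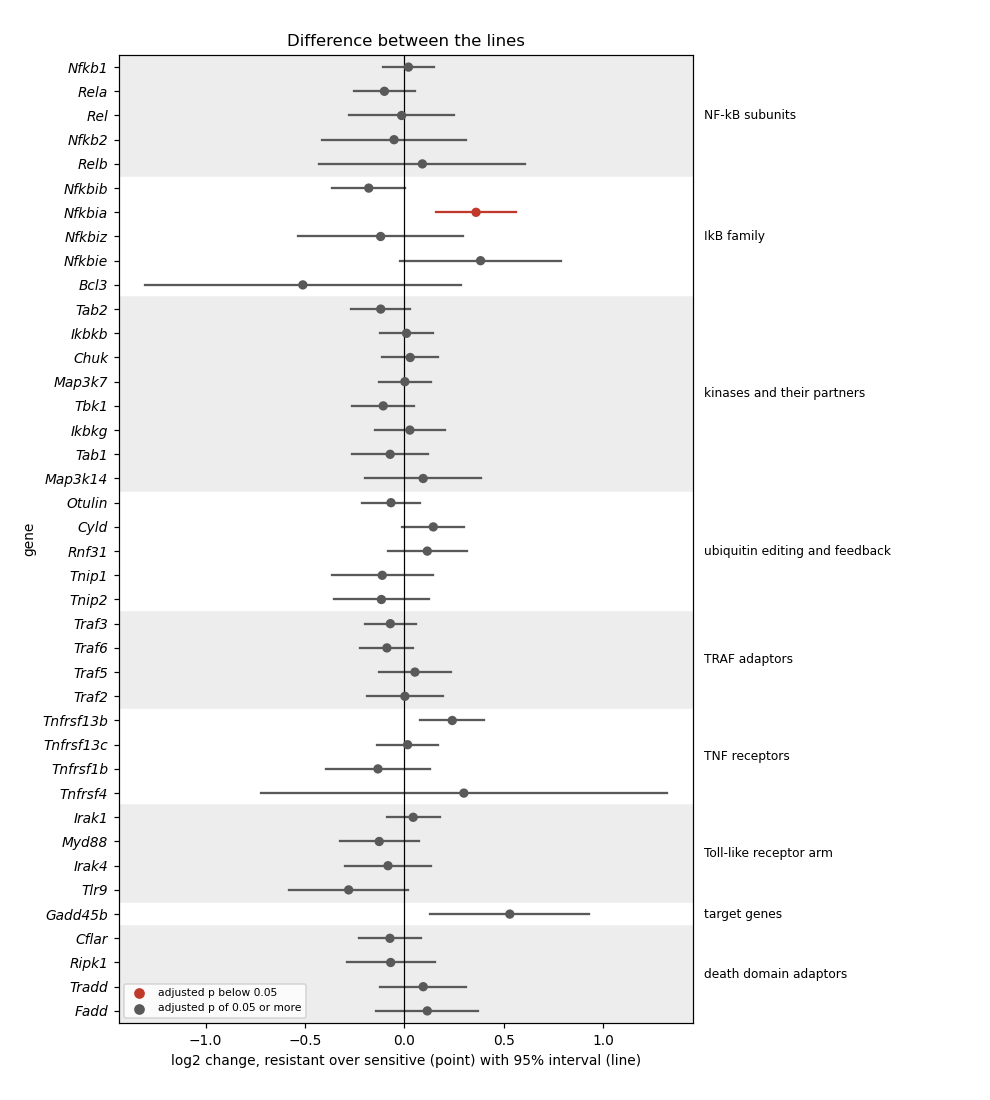
Log2 change of each of the 40 tested members, resistant over sensitive, with its 95% interval, grouped by role. Nfkbia, in red, was the only member called (adjusted p below 0.05), and the widest intervals belong to the weakly expressed Bcl3 and Tnfrsf4.

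The IkB family, the inhibitors and nuclear cofactors of NF-kB, held the single called member. Nfkbia had 27.7 and 27.2 CPM in the resistant libraries, against 20.8 and 22.1 CPM in the sensitive libraries. Both resistant libraries were above both sensitive ones, and the gap between the line means (0.36 in log2 CPM) exceeded the gaps within the resistant (0.03) and the sensitive (0.08) line. The fold change was 1.28, a log2 change of 0.36 ± 0.10 (SE) with a 95% interval of 0.16 to 0.56 and an edgeR adjusted p of 0.0477. The call is close to its threshold. It was lost in DESeq2 (adjusted p = 0.488), with a minimum count of 30 (adjusted p = 0.0506), and without resistant replicate 1 (0.259), resistant replicate 2 (0.219) or sensitive replicate 1 (0.0541), while the log2 change stayed between 0.32 and 0.40 in all 12 alternatives.

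Nfkbie, which encodes IkB-epsilon, had 6.59 and 6.57 CPM in the resistant libraries, against 4.32 and 5.93 CPM in the sensitive libraries. Its log2 change was 0.38, but the sensitive libraries differed by 0.44 in log2 CPM and the edgeR adjusted p was 0.326. When sensitive replicate 1 was left out the change was 0.15, and when sensitive replicate 2 was left out it was 0.61, neither called. Nfkbib, which encodes IkB-beta, had 39.9 and 36.9 CPM in the resistant libraries, against 40.9 and 46.3 CPM in the sensitive libraries (log2 change -0.18, edgeR adjusted p = 0.312). Its log2 change was -0.27 when sensitive replicate 1 was left out (adjusted p = 0.0267) and -0.096 when sensitive replicate 2 was (0.571), and 16.4% of its exonic bases overlap genes on the other strand (Ccer2 and Sirt2). The nuclear cofactors Nfkbiz (-0.12) and Bcl3 (-0.51, at 1.28 and 0.842 CPM in the resistant libraries and 1.46 and 1.56 CPM in the sensitive libraries) did not pass. The 5 members of the family had 2 positive and 3 negative log2 changes.

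Nfkbia is a textbook NF-kB target, through which the factor restrains itself. The windows printed here are those of the called inhibitor, of its relative Nfkbie, which was not called, and of Tnip1, a feedback gene with no called change. Each of these holds a match, whereas the windows of Nfkbib, Bcl3 and Gadd45b hold none. Each window is the 250 bases before the RefSeq start (GRCm38.p6), written 5′ to 3′ on the gene's strand. Capitals mark matches to the 10-base kB consensus GGGRNNYYCC on either strand (overlapping matches merged). In the consensus R is A or G, Y is C or T and N is any base. Nfkbia is at chr12:55492648-55492897 on the minus strand, Nfkbie at chr17:45555450-45555699 on the plus strand and Tnip1 at chr11:54962941-54963190 on the minus strand.
Nfkbia: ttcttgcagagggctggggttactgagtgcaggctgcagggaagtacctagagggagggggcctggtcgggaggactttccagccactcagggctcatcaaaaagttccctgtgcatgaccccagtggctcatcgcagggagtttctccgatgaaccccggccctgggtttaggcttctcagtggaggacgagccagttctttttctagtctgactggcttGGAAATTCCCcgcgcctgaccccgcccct
Nfkbie: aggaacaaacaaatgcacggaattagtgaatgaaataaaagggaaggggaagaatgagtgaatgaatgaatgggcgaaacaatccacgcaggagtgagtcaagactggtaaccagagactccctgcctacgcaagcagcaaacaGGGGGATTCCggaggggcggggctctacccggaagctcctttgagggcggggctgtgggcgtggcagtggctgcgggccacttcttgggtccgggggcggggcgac
Tnip1: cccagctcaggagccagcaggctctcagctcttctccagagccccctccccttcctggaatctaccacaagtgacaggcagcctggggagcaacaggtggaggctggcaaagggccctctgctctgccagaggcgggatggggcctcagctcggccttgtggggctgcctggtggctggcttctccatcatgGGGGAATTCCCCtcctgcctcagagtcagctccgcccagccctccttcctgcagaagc

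A match began 29 bases before the start in Nfkbia, 106 bases before it in Nfkbie and 58 bases before it in Tnip1. Of 43 members with a RefSeq window, 12 (27.9%) held a match in at least 1 window, as did 2225 of 27025 genes (8.23%) and 2382 of all 32851 windows (7.25%). The 12 are Nfkb2, Rel, Nfkbia, Nfkbie, Map3k7, Tnfaip3, Tnip1, Traf3, Ltb, Irak1, Ebi3 and Cyld. Of the 9 that were tested, 1 was called (Nfkbia), beside 3.73% of all tested genes. Their log2 changes ran from -0.11 to 0.38 with a median of 0.00. The 25 tested members with a window and no match had 0 calls and log2 changes of -0.51 to 0.53. With 1 call these sets cannot be compared, and whether a match goes with a change was not tested. Matching letters describe the windows only, and no binding was measured.

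Feedback regulators and ubiquitin enzymes downstream of the receptors did not pass the test. Tnfaip3, which encodes A20, an inhibitor that NF-kB induces strongly in activated cells, was barely detected, with 4 and 10 counts in the resistant libraries and 6 and 7 counts in the sensitive libraries. The A20-binding inhibitor Tnip1 had 18.6 and 18.3 CPM in the resistant libraries, against 17.8 and 22.4 CPM in the sensitive libraries, and its ranges overlapped (log2 change -0.11). Cyld, a deubiquitinase that removes activating chains, had 54.3 and 52.4 CPM in the resistant libraries, against 48.8 and 47.5 CPM in the sensitive libraries. The resistant libraries were the higher ones, with a log2 change of 0.15 ± 0.07 (95% interval -0.01 to 0.30, edgeR adjusted p = 0.337). Otulin, the deubiquitinase of linear chains (-0.07), Rnf31, the ligase HOIP that makes them (0.12), and the A20-binding Tnip2 (-0.12) had edgeR adjusted p-values of 0.584 or more. Per kilobase of exon, Otulin was the highest of the 40 members, at 38.5 ± 0.446 CPM per kb in resistant cells and 40.2 ± 1.22 CPM per kb in sensitive cells (mean ± SD, n = 2 each).

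Among target genes, Gadd45b, a stress-response gene that NF-kB induces, had 5.86 and 6.31 CPM in the resistant libraries, against 3.93 and 4.57 CPM in the sensitive libraries. Both resistant libraries were higher, and the fold change of 1.44 was the highest among the 40 members. The log2 change was 0.53 ± 0.19 (95% interval 0.13 to 0.93), but the edgeR adjusted p was 0.149 and it was not called in any of the 12 alternatives. Gadd45b lies on chromosome 10 of GRCm38 at 80930073 to 80932204, and Nfkbia on chromosome 12 at 55489410 to 55492647.

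**Figure D3:**
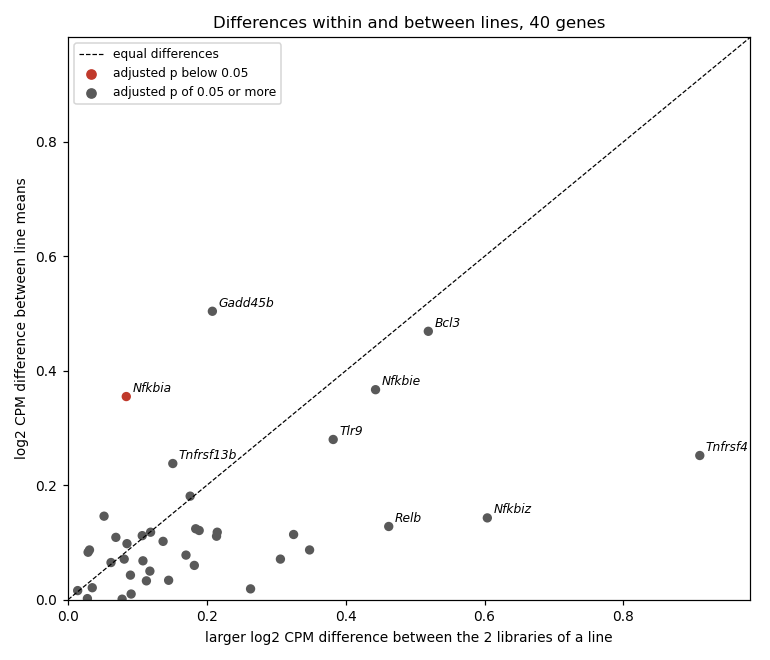
Difference in log2 CPM between the line means (vertical axis) against the larger of the differences between libraries of 1 line (horizontal axis) for the 40 tested members, with the dashed line at equality. Nfkbia (red), Gadd45b and Tnfrsf13b lie above the line, and Tnfrsf4, Nfkbiz and Relb far below it.

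Set against the replicate spread, the difference between line means was larger than the differences within both lines in 12 of 40 members, beside 34.3% of all tested genes. There was no overlap between the lines in 19 members, 8 higher and 11 lower in resistant cells, beside 47.3% of all tested genes, with 24.1% higher and 23.2% lower. The 95% interval of the change lay within a 1.25-fold difference either way in 23 members (57.5%, beside 49.8% of tested genes), within 1.5-fold in 35 (87.5%, beside 75.0%) and within 2-fold in 38 (beside 88.6%). The 5 members outside the 1.5-fold limits were Relb, Nfkbie, Bcl3, Tnfrsf4 and Gadd45b, all under 7 CPM in both lines. The summed level of all members was 1870 and 1850 CPM in the resistant libraries and 1840 and 1910 CPM in the sensitive libraries.

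Genes of the same pathway outside the 50 were read from 4 further lists of 142 genes. Birc3 and Nfkbid stand in both the regulator and the target list. Of the 142, 79 were tested, 47 had no row and 16 were below the filter. Of the 44 target genes, 20 had no row and 4 were below the filter. Of the 34 TNF receptors and ligands, 18 had no row and 6 were below it. Of 36 tested adaptors, kinases and regulators, 0 were called in edgeR, DESeq2 or limma-voom, and their median log2 change was -0.02 (2 higher and 3 lower in edgeR before adjustment, at p below 0.05). Their lowest adjusted p belonged to Nfkbid, the nuclear IkB protein IkBNS, named here after its values were seen. It had 14.4 and 14.8 CPM in the resistant libraries, against 18.8 and 19.8 CPM in the sensitive libraries, with no overlap (log2 change -0.40 ± 0.11, edgeR adjusted p = 0.0586, or 0.0266 with the replicate number as a block). Its adjusted p was 0.0141 or 0.0462 with sensitive replicate 1 or 2 left out, 0.291 or 0.242 with resistant replicate 1 or 2 left out, and 0.545 in DESeq2. Of 10 tested TNF receptors and ligands 0 were called by the same 3 tools, and their median was 0.04 (1 higher and 1 lower in edgeR before adjustment, at p below 0.05). Of 20 tested textbook NF-kB target genes 1 was called, the apoptosis inhibitor Bcl2 (105 and 113 CPM in the resistant libraries, against 18.0 and 18.3 CPM in the sensitive libraries), and the median log2 change was -0.03 (2 higher and 2 lower in edgeR before adjustment, at p below 0.05). Bcl2 answers to many other factors as well. DESeq2 and limma-voom also called Bcl2 alone, and the fit with the replicate block called 2 higher (Bcl2 and Plek) and 1 lower (Nfkbid). Plek, which encodes pleckstrin, a signalling protein of blood cells, is named after its values were seen. It had 2.29 and 2.52 CPM in the resistant libraries, against 0.694 and 1.36 CPM in the sensitive libraries, with no overlap (log2 change 1.27 ± 0.36, edgeR adjusted p = 0.0623). Its log2 change was 0.82 (adjusted p = 0.259) with sensitive replicate 1 left out and 1.78 (0.00717) with sensitive replicate 2 left out, and DESeq2 gave an adjusted p of 0.593. Of 15 tested genes of Toll-like and interleukin-1 receptor signalling 2 rose and 0 fell, with a median of 0.12. In edgeR before adjustment, 3 were higher and 0 lower at p below 0.05. For comparison with all 4 lists, 2.20% of all tested genes were called higher and 1.52% lower. Before adjustment, 1087 of the 11945 tested genes (9.10%) were higher and 926 lower at p below 0.05. The 2 that rose were also called by limma-voom, and DESeq2 called 0 of the 15.

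Those 2 are surface receptors of the Toll-like family. Tlr1, which pairs with TLR2 to sense bacterial lipopeptides, had 11.1 and 8.33 CPM in the resistant libraries, against 5.55 and 4.67 CPM in the sensitive libraries. The resistant libraries were above the sensitive ones (log2 change 0.91 ± 0.18, edgeR adjusted p = 0.00827), but the call was lost without resistant replicate 1 (log2 change 0.69, adjusted p = 0.0693) and in DESeq2 (adjusted p = 0.0818). Its partner Tlr2, named after its values were seen, had 2.20 and 1.35 CPM in the resistant libraries and 2.31 and 1.46 CPM in the sensitive libraries, which overlapped, and did not pass.

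Cd180 encodes RP105, a Toll-like receptor homologue of B cells. It had 10.6 and 10.3 CPM in the resistant libraries, against 5.78 and 7.29 CPM in the sensitive libraries, with no overlap, a log2 change of 0.70 ± 0.16 and an edgeR adjusted p of 0.0190. DESeq2 did not call it (adjusted p = 0.288). Ly86 encodes MD-1, which binds RP105, and is named here after its values were seen. It had 96.9 and 94.1 CPM in the resistant libraries, against 79.7 and 83.7 CPM in the sensitive libraries, with no overlap (log2 change 0.23 ± 0.06, edgeR adjusted p = 0.0697). With sensitive replicate 1 left out its adjusted p was 0.0456, and with sensitive replicate 2 left out 0.00205, but with resistant replicate 1 or 2 left out it was 0.519 or 0.371, and in DESeq2 0.432. On GRCm38 Tlr1 lies on chromosome 5 at 64924679 to 64933563 and Cd180 on chromosome 13 at 102693558 to 102739629.

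**Figure D4:**
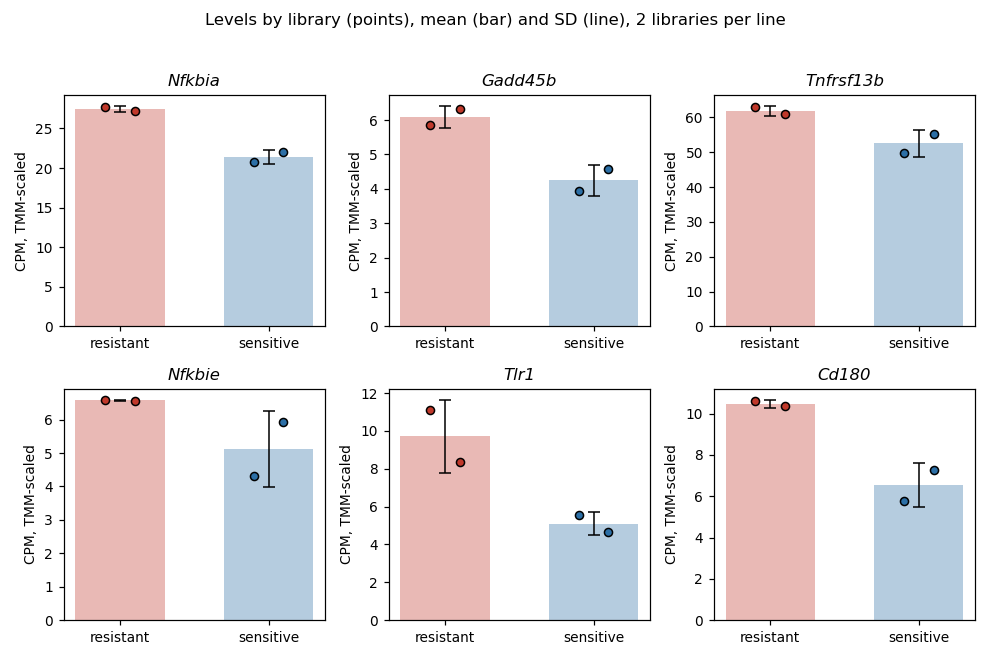
TMM-scaled CPM of Nfkbia, Gadd45b, Tnfrsf13b, Nfkbie, Tlr1 and Cd180 in each library (points), with the mean (bar) and SD (line) of 2 libraries per line, resistant on the left. Each gene is higher in both resistant libraries, and of the 6 only Nfkbia, Tlr1 and Cd180 were called. Genes lower in resistant cells are not shown. Among the 40 tested members, 8 were higher and 11 lower without overlap, beside 24.1% and 23.2% of all tested genes.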

How the data were processed

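The deposited table holds the authors' counts of reads per Ensembl gene, not normalized. Tools named in the submitters' processing notes are HTSeq, Bowtie2, TopHat, cutadapt 1.7, FastQC and limma, with GRCm38 and mm10 as builds. The strand setting of the counting is not given in these sources, nor is the tools' order. Rows had at least 4 counts over the libraries.

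Symbols, positions and exon lengths came from GENCODE M21 (GRCm38), which matched 16407 of 16591 identifiers, and promoter windows from RefSeq. Counts were fitted with edgeR 4.0.16 in R 4.3.3 (TMM factors, filterByExpr with a minimum count of 10, glmQLFTest on the group) and adjusted by the Benjamini-Hochberg method over 11945 genes. Standard errors and 95% intervals derive from the F statistic. The fit was also run on simulated counts with known changes. Those had the same dispersion for every gene and changes only in well-counted genes, so they do not cover the weakly counted members. Alternatives used DESeq2 1.42.0, limma-voom (limma 3.58.1), 3 other scalings, 2 other filters, a replicate block, and each library left out in turn. Transcript length was varied after seeing the data.

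The members, lists and tests were chosen with earlier results of these data known. Levels in each library and log2 changes are given for members with an unadjusted p below 0.05 and for tested subunits and receptors. For the ligand Tnf the counts are given. Standard errors, intervals and adjusted p-values are not printed for all of these. Genes of the further lists are named where called, apart from Nfkbid, Plek, Tlr2 and Ly86, which were named after their values were seen. The labels do not say whether replicates were separate cultures. P-values therefore measure only the spread between these libraries, which may be technical.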

Additional observations from a re-analysis of the deposited data

How the results depend on the processing

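The count of genes called over the whole table was 445, or 208 with DESeq2 and 270 to 1381 when 1 library was left out. The count of members called higher was 1, or 0 with DESeq2, 0 with a minimum count of 30, and 0 to 2 when 1 library was left out. The count called lower was 0, or 0 to 3 when 1 library was left out, with Tab2, Nfkbib and Tlr9 called without sensitive replicate 1. The cause was not tested, and a lone library is assumed to vary like the other line. With the replicate number as a block, 595 genes and 1 member (Nfkbia, edgeR adjusted p = 0.0229) were called. The lines share only 2 numbers, and the deviations of same-numbered libraries had a correlation of -0.02. With 2 libraries per line, this value cannot show whether the numbers pair them. Over the 47 genes with alternatives, 514 of the log2 changes kept their direction and side of the threshold, 8 lost a call, 11 gained one, and 27, in 17 genes with no call, changed sign. Leaving out 1 library gave Nfkb2 -0.15 to 0.034, Rel -0.15 to 0.11, Relb -0.11 to 0.38, Nfkbiz -0.45 to 0.16, Ikbkb -0.036 to 0.054, Ikbkg -0.026 to 0.089, Chuk -0.040 to 0.11, Map3k7 -0.012 to 0.015, Map3k14 -0.088 to 0.27, Tnip1 -0.28 to 0.048, Traf2 -0.037 to 0.042, Traf5 -0.0092 to 0.11, Tnfrsf4 -0.21 to 0.89, Irak1 -0.0020 to 0.089, Ripk1 -0.23 to 0.081, Cflar -0.16 to 0.0073 and Tlr2 -0.51 to 0.27. DESeq2 gave -0.00011 for Map3k7 and -0.00058 for Traf2. The effect of depth was not tested.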
